A study of Rattus norvegicus with 64 samples.

Results

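The nuclear genes for the 5 complexes of oxidative phosphorylation were followed through the hippocampus and cortex of rats given doxorubicin, an anthracycline chemotherapy drug. Genes were taken by symbol from the authors' comparison tables (Nduf subunits without assembly factors and without Ndufs5, Sdha to Sdhd, Uqcr, Cox4 to Cox8 and Atp5 genes), and where a symbol had several rows the row of highest total was used. This gave 80 of 32551 genes, of which 34 carry a complex I symbol, 4 a symbol of complex II, 8 of complex III, 16 of complex IV and 18 of complex V. Every complex named below is assigned by symbol. The rule rests on names, apart from the 3 symbols with 2 rows (Cox6b1, Ndufv3 and Uqcrb), where the measured total chose the row. The members were chosen with earlier results of these data known. Ndufa4 and Ndufa4l2 are counted with complex I by symbol, although their products are known as subunits of complex IV. The rats carried ApoE3 or ApoE4, isoforms of apolipoprotein E, a protein that moves lipids between brain cells, and the question was what the drug changes in the brain of either genotype. ApoE3 rats given PBS, ApoE3 rats given doxorubicin, ApoE4 rats given PBS and ApoE4 rats given doxorubicin each gave hippocampus and cortex, so that 32 rats yielded 64 libraries in 8 groups of 8, with 4 males and 4 females in each. Treatment was 2 mg/kg of doxorubicin per week for 4 weeks from 5 weeks of age, and brains were collected 5 to 6 weeks after dosing ended. The strain, the promoter that drives the ApoE allele and the sequencing batches are not given in the sources used here.

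Complex I takes electrons from NADH and complex II takes them from succinate, both pass them to ubiquinone, complex III hands them to cytochrome c, and complex IV reduces oxygen. Complexes I, III and IV pump protons across the inner mitochondrial membrane, and complex V, the ATP synthase, lets them flow back to make ATP. Most subunits are nuclear genes, while a small set of core subunits of complexes I, III, IV and V is encoded in mitochondrial DNA. Neurons draw most of their ATP from this pathway. Several complex IV subunits exist as a widely expressed form and a form known from heart, skeletal muscle, lung or testis. Many of these genes have processed pseudogenes and near-identical copies (Cox7a2l2 and Ndufa10l1 are named for one), and how the counting treated reads that fit several places is not given in the sources used here.

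The smallest library held 10.84M counts, the median one 14.48M and the largest 20.4M. The oxidative phosphorylation genes took 0.906% to 1.12% of the gene counts of a library, and the mitochondrially encoded genes 6.23% to 10.6%. Levels below are CPM, counts scaled to library size, after TMM scaling over the 64 libraries, a score is the mean log2 CPM of a gene list in a library, and an adjusted p is from edgeR's quasi-likelihood test with Benjamini-Hochberg adjustment over all tested genes, called at 0.05. Transcript lengths were not used, so levels are compared between samples and not between genes. In these bulk samples fewer cells of a type and less RNA per cell cannot be told apart. Rat numbers ran in blocks by genotype, sex and treatment, so a batch that follows the numbers and these groupings cannot be told apart. The tissue labels were matched by markers: the score of hippocampal granule and pyramidal cell genes (3 matched) was 6.10 to 6.68 in hippocampus and 4.77 to 5.51 in cortex, and that of 6 cortical projection neuron genes 4.13 to 4.89 and 5.93 to 6.33. Some libraries held more RNA of neighbouring tissue. The striatal neuron score exceeded 5 in 5 cortex libraries (5.18 to 5.76), all from doxorubicin males (3 ApoE3 and 2 ApoE4). In the other cortex libraries it ran from 3.40 to 4.93, the last in an ApoE3 PBS male, so the limit of 5 marks no clear gap. The choroid plexus score exceeded 4 in 11 libraries, 8 of them hippocampal. In ApoE3 PBS hippocampus 1 female library had a member score of 6.25, against 5.99 to 6.07 in the other 7 libraries.

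The members varied little between the 8 groups. The distance between the highest and the lowest group mean had a median of 0.19 on the log2 scale over the 80 genes and was under 0.3 for 59 of them. The flattest was Ndufa3, an accessory subunit of complex I, whose group means ran from 30.2 to 31.5 CPM. The widest was Cox6a2, the heart and muscle form of a complex IV subunit, at 3.66 on the log2 scale, followed by 2 further muscle forms, Cox8b at 1.55 and Cox7a1 at 1.37. Their counts were low, with means of 18.9, 7.42 and 11.9 per library. Their mean SDs within a group were 0.65, 1.1 and 0.57 on the log2 scale. ApoE3 PBS cortex had the highest group mean for 51 of the 80 genes. The score over the 79 members with sufficient counts was 6.21 ± 0.07 (SD, n = 8) in that group. In the other cortex groups it was 6.14 ± 0.08 with ApoE3 and doxorubicin, 6.13 ± 0.05 with ApoE4 and PBS and 6.11 ± 0.04 with ApoE4 and doxorubicin (SD, n = 8 each). In hippocampus it was 6.06 ± 0.08 with ApoE3 and PBS, 6.03 ± 0.04 with ApoE3 and doxorubicin, 6.05 ± 0.05 with ApoE4 and PBS and 6.06 ± 0.04 with ApoE4 and doxorubicin (SD, n = 8 each). The 4 hippocampal means thus lay within 1 SD of each other, and ApoE3 PBS cortex stood highest.

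**Figure D1:**
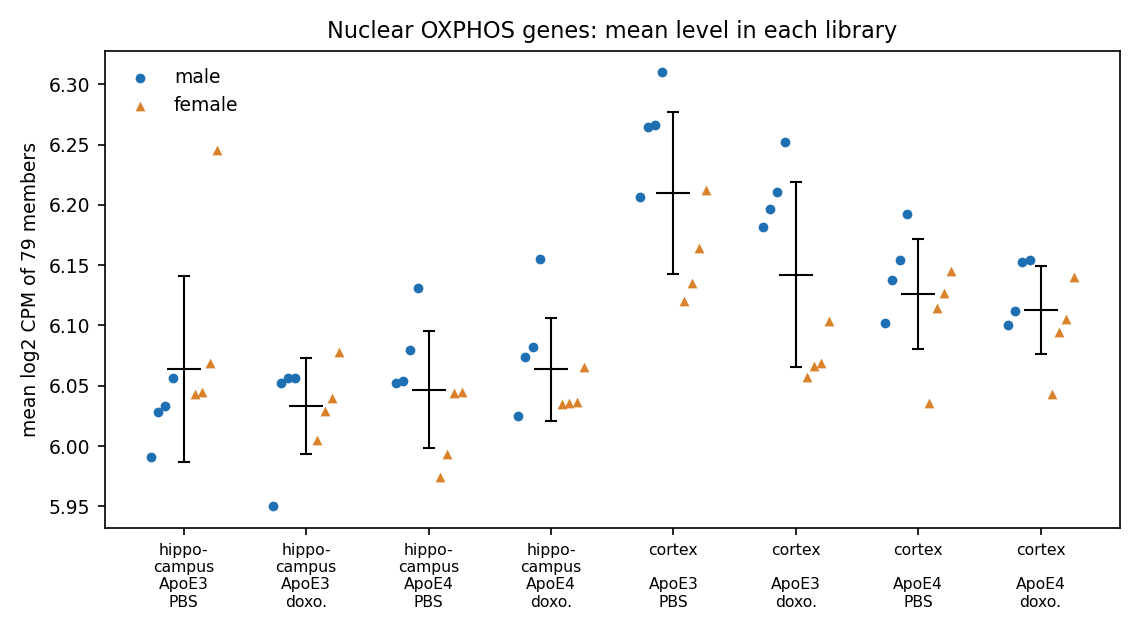
Mean log2 CPM of the 79 oxidative phosphorylation genes with sufficient counts in each of 64 libraries, by group (circles, males; triangles, females; black mark and bar, mean ± SD of 8). ApoE3 PBS cortex has the highest mean, 6.21, and 1 female library of ApoE3 PBS hippocampus lies at 6.25, above the other 7 of its group.

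Within groups the members moved together. Over 70 members with a mean of at least 300 counts per library, the Pearson correlation of deviations from the mean of each group and sex had a median of 0.352 for pairs within a complex and 0.38 for pairs from different complexes, and 97.5% of pairs were above 0. The median over pairs of 1576 genes of that depth was 0.00978. These pairs share libraries, depth and dissection, and the values are descriptions over 64 libraries. The members' counts below are therefore not counts of independent genes.

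No member passed the test for doxorubicin in either region or genotype. In each of the 4 comparisons 0 members passed, and the share of all genes that passed was 0% in each. At an unadjusted p under 0.05 the members numbered 2 of 77 in ApoE3 hippocampus, 1 of 77 in ApoE4 hippocampus, 21 of 78 in ApoE3 cortex and 2 of 78 in ApoE4 cortex. Of all genes tested, 1529 of 14898, 1098 of 14872, 1366 of 14770 and 1313 of 14837 did, in the same order. DESeq2 also called 0 members in each. The precision was enough to bound most differences: the 95% interval of the log2 change lay between -0.3 and 0.3 for 72, 72, 72 and 73 members in the same order. The authors' deposited tables give 0 members an adjusted p under 0.05, with lowest values of 0.198, 0.625, 0.327 and 0.359.

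In ApoE3 cortex the differences, though not past the threshold, lay mostly on one side. The median log2 change was -0.07 and 71 of 78 members lay below 0, including 34 of 34 with a complex I symbol. The medians by complex were -0.08 for complex I, -0.04 for complex II, -0.05 for complex III, -0.06 for complex IV and -0.07 for complex V. Ndufb4, an accessory subunit of complex I, had the smallest p. It measured 80.9 to 94.6 CPM with PBS (median 89.4) and 71.2 to 94.9 CPM with doxorubicin (median 79.8). These ranges overlap, and the log2 change was -0.15 (SE 0.04, adjusted p = 0.248, n = 8 per group). Ndufb8 and Ndufb2, further accessory subunits of complex I, had log2 changes of -0.12 each (adjusted p = 0.34 and 0.341). On the other side were Cox6b2, the testis form of a complex IV subunit, at 0.27, Cox6a2 at 0.14 and Uqcrq, a small subunit of complex III, at 0.02. Other mitochondrial lists lay the same way: 13 of 13 citric acid cycle genes (median -0.05), 15 of 15 genes of mitochondrial mass such as carriers and import proteins (median -0.07) and 11 of 13 mitochondrially encoded genes (median -0.07) were below 0, and 0 passed in each. Of the cell markers, 8 of 8 oligodendrocyte genes lay below 0 (median -0.10), while 7 of 7 meningeal fibroblast genes (0.26), 7 of 7 of smooth muscle and pericytes (0.17), 5 of 5 of endothelium (0.16) and 5 of 5 striatal genes (0.28) lay above 0, again with 0 passing, and their part was not tested. Some of these moved apart by sex. From PBS to doxorubicin the endothelial score went from 5.03 to 5.01 in males and 5.09 to 5.48 in females. That of smooth muscle and pericytes went from 4.50 to 4.39 and 4.50 to 4.95. That of neurons went from 9.21 to 9.29 and 9.30 to 9.16. Striatal scores were 3.88 to 4.93 with PBS and 4.48 to 5.62 with doxorubicin in males. In females they were 4.30 to 4.82 and 3.40 to 4.28. Meningeal scores were higher and oligodendrocyte scores lower in both sexes. The 3 ApoE3 doxorubicin libraries with a striatal score above 5 had member scores of 6.18 to 6.25, and the one other male of the group 6.20.

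The other 3 comparisons were less one-sided. In ApoE3 hippocampus the median was -0.02 with 52 of 77 members below 0, and the smallest p belonged to Ndufc2 of complex I (-0.11, SE 0.04, adjusted p = 0.287), Uqcrb of complex III (-0.11) and the iron-sulfur subunit Ndufs8 of complex I (-0.10). Its members above 0 of smallest p were Atp5f1e (0.08), Ndufs3 (0.05) and Atp5s (0.07). In ApoE4 hippocampus the median was 0.004 with 35 of 77 below 0. There the iron-sulfur subunit Sdhb of complex II had a log2 change of 0.07 (adjusted p = 0.652), Ndufb10 0.07 and Ndufs8 0.08, while Sdhd, a membrane anchor of complex II, had -0.08, Atp5mc2 -0.05 and Atp5md -0.13. In ApoE4 cortex the median was -0.001 with 39 of 78 below 0, and Atp5i (-0.09, adjusted p = 0.532), Cox6c (-0.07) and Ndufa4l2 (-0.31) lay opposite Ndufa5 (0.08), Ndufa11 (0.07) and Ndufb2 (0.06). The 13 mitochondrially encoded genes of that comparison were all below 0, with a median of -0.19, and 0 passed. Tests of whether the drug effect differed by genotype, by region or by sex called 0 members, against 0% of all genes in 6 of these 8 tests, 0.00674% for sex in ApoE4 cortex and 2.57% for sex in ApoE3 cortex. By DESeq2 the count was 0 too, apart from 1 for sex in ApoE3 cortex. The median difference of effects, ApoE4 minus ApoE3, was 0.016 in hippocampus and 0.066 in cortex, and the median hippocampal minus cortical effect was 0.047 in ApoE3 and 0.011 in ApoE4. In the sex test in ApoE3 cortex, 0 of 78 members passed with edgeR, 5 reached an unadjusted p under 0.05 and 1 was called by DESeq2. The smallest p was at Ndufs1, the largest iron-sulfur subunit of complex I (-0.25, female minus male, adjusted p = 0.0887). Of all 14770 genes, 2884 had an unadjusted p under 0.05 there.

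By genotype, members passed mainly in cortex. In PBS cortex 18 of 79 members were lower in ApoE4 than in ApoE3 rats and 0 were higher, where 7% of all genes were lower and 9.21% higher. The median log2 difference was -0.10 and 70 of 79 members lay below 0. By complex, 11 of the lower genes carry a complex I symbol, 2 belong to complex III, 2 to complex IV and 3 to complex V, and none to complex II. Ndufb8, an accessory subunit of complex I whose protein is often probed to follow assembly of that complex, had the smallest p. It measured 127.8 to 148.0 CPM in ApoE3 (median 137.3) and 105.3 to 123.0 CPM in ApoE4 (median 113.7). No ApoE4 library reached the lowest ApoE3 library, and the log2 difference was -0.27 (SE 0.04, adjusted p = 5.52e-05, n = 8 per group).

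The other lower members overlapped between genotypes. Ndufb4 fell by 0.20 on the log2 scale (adjusted p = 0.00292), from 89.1 ± 4.08 to 77.8 ± 4.28 CPM (SD, n = 8). Cox7a1, the heart and muscle form of a complex IV subunit, stood at 0.743 to 1.77 CPM in ApoE3 and at 0.432 to 0.929 CPM in ApoE4, with a log2 difference of -0.97 (SE 0.22, adjusted p = 0.00434). The complex I genes Ndufa6 (-0.24), Ndufs7 (-0.18) and Ndufs3 (-0.18) followed by p, the last 2 being core subunits of the arm that passes electrons to ubiquinone. Next came Cox7b of complex IV (-0.17) and Atp5if1, the protein that inhibits ATP synthase when it would run in reverse (-0.15). The Rieske iron-sulfur protein Uqcrfs1 of complex III (-0.17) was among the other 10. Cox6b2 (0.55, adjusted p = 0.104), Cox6a2 (0.36) and Cox4i2 (0.24), all of low counts, lay on the opposite side.

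The mitochondrially encoded genes of the same libraries lay the other way: 5 of 13 were higher in ApoE4 PBS cortex, 0 were lower, and all 13 were above 0 with a median of 0.23. Of all genes 9.21% were higher and 7% lower there. Assembly factors of the respiratory chain had 6 of 40 lower, and the list of mitochondrial mass 3 of 15 lower. Markers of several cell types moved in the same comparison. Higher in ApoE4 were 5 of 7 meningeal fibroblast genes (median 0.88), 5 of 7 of smooth muscle and pericytes (0.46), 4 of 5 of endothelium (0.39), 3 of 8 of astrocytes (0.16) and 1 of 8 of oligodendrocytes (0.16), with 0 lower in each. Lower were 5 of 8 microglial genes (-0.30, 0 higher), while of 10 neuronal genes 1 was higher and 4 lower (-0.07). The meningeal score ran from 3.63 to 4.30 in ApoE3 and from 3.80 to 5.12 in ApoE4 PBS cortex. The part of these cells in the difference was not tested. Without the libraries of choroid plexus score above 4, 11 members passed, all lower, in place of 18, and under scaling by library total 33 did, all lower.

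With doxorubicin the cortex comparison called fewer members, and one of them upward. There 6 of 78 members passed, 1 higher and 5 lower, against 14.1% of all genes (7.93% higher and 6.2% lower). Ndufb10, an accessory subunit of complex I, was higher in ApoE4 by 0.15 on the log2 scale (adjusted p = 0.0357). Lower were Uqcrq (-0.17, adjusted p = 0.00444), Atp5f1e, the epsilon subunit of ATP synthase (-0.13), Uqcr10 of complex III (-0.15), Ndufb8 (-0.11, adjusted p = 0.0337) and Atp5i of the ATP synthase membrane part (-0.11). Ndufb8 and Atp5f1e were lower in both cortex comparisons, which share no library, and are 2 of 78 members against 2.89% of all genes. Without the cortex libraries of striatal score above 5, all from doxorubicin rats, 0 members passed, with Uqcrq at -0.17 and Ndufb10 at 0.15. Under scaling by library total 0 were higher and 10 lower.

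In hippocampus 0 of 77 members differed by genotype with PBS, where 2.81% of all genes did. At an unadjusted p under 0.05 there were 5 members, against 2229 of 14939 genes, and DESeq2 called 1 member. Without the ApoE3 female library that stood apart, Ndufb6 (0.21) and Atp5mc2 (0.12) passed. The smallest p were at Ndufb6 (0.17, adjusted p = 0.0951), Atp5mc2 (0.09) and Cox6b2 (0.39) above 0 and at Ndufb8 (-0.16, adjusted p = 0.151), Cox7a1 (-0.88) and Sdhb (-0.08) below. With doxorubicin 2 of 77 passed, one each way, against 3.18% of all genes (1.64% higher and 1.54% lower). Ndufb10 was higher in ApoE4, at 77.9 to 95.9 CPM (median 85.3) against 70.8 to 81.0 CPM (median 75.2), a log2 difference of 0.19 (SE 0.04, adjusted p = 0.0137). Ndufb8 was lower, at 100.6 to 116.6 CPM (median 111.9) against 116.7 to 128.8 CPM (median 122.2), a log2 difference of -0.13 (SE 0.03, adjusted p = 0.0253). The Ndufb8 ranges met without overlapping, and those of Ndufb10 overlapped. Neither passed without the libraries of choroid plexus score above 4 (0.19 and -0.12), a fit in which 1 member passed, higher in ApoE4. Ndufb8 thus had a lower mean in ApoE4 in all 4 comparisons and passed in 3 of them, and Ndufb10 had a higher mean in ApoE4 in all 4 and passed in 2. The hippocampal and cortical comparisons of a treatment use the same rats, so these 4 are not independent. Mitochondrially encoded genes were higher in ApoE4 hippocampus too, 4 of 13 with PBS and 5 of 13 with doxorubicin. The genotype difference itself was not shown to differ between the regions for any member: 0 passed with PBS, where the median of hippocampal minus cortical difference was 0.10, the lowest adjusted p was 0.159 (Ndufb4) and 0.13% of all genes passed. With doxorubicin 0 passed against 0.911% of all genes. At an unadjusted p under 0.05 the members were 19 and 7 of 79, against 1923 of 15414 and 2049 of 15471 genes. DESeq2 called 0 members in both.

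**Figure D2:**
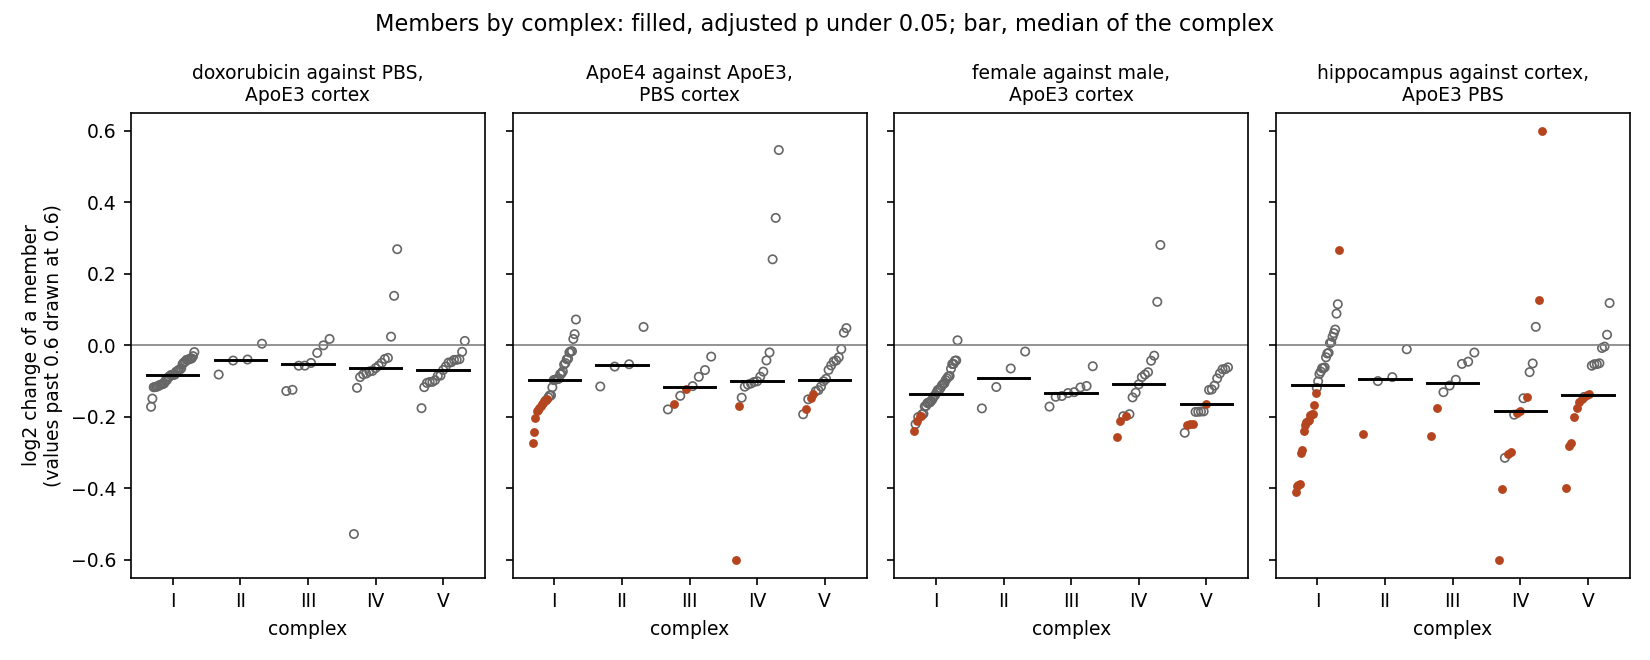
Log2 differences of the oxidative phosphorylation genes by complex in 4 comparisons: doxorubicin in ApoE3 cortex, ApoE4 against ApoE3 in PBS cortex, female against male in ApoE3 cortex, and hippocampus against cortex in ApoE3 PBS rats (1 point per gene; filled, adjusted p under 0.05; bar, median of the complex; values past 0.6 drawn at 0.6). The points lie mostly below 0 in all 4 panels, with 0, 18, 11 and 38 genes past the threshold.

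These 4 comparisons all use the ApoE3 PBS cortex libraries, in which the members stood highest, so their directions are not independent of each other.

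Females had lower levels than males in ApoE3 cortex. There 11 of 78 members were lower in females and 0 higher, where 0.203% of all genes were lower, that is 30 genes in all. The median log2 difference was -0.13 and 75 of 78 members lay below 0. An unadjusted p under 0.05 was seen for 55 members and for 2044 of all 14770 genes. Cox7a2l2, by name a relative of Cox7a2l, which joins complexes III and IV into supercomplexes, had the smallest p. It measured 135.6 to 162.8 CPM in PBS males and 114.4 to 138.5 CPM in PBS females, and 135.5 to 148.8 CPM in doxorubicin males against 115.7 to 123.6 CPM in doxorubicin females. The sexes overlapped with PBS and not with doxorubicin, and the log2 difference was -0.26 (SE 0.05, adjusted p = 0.0113, 8 libraries of each sex). Atp5pf, coupling factor 6 in the stalk of ATP synthase, had -0.22 (SE 0.04, adjusted p = 0.0135).

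The other lower genes came from 3 of the complexes. Ndufa6 (-0.24, adjusted p = 0.0218), Ndufa5 (-0.20), Ndufb9 (-0.20) and Ndufa4 (-0.21) carry a complex I symbol. Atp5mg (-0.22, adjusted p = 0.0218), Atp5mf (-0.22) and Atp5if1 (-0.16) belong to ATP synthase, and Cox6a1 (-0.20) and Cox6c (-0.21) to complex IV. The member score was 6.26 ± 0.04 in males and 6.16 ± 0.04 in females with PBS, and 6.21 ± 0.03 and 6.07 ± 0.02 with doxorubicin (SD, n = 4 each). Striatal genes lay below 0 in females for 5 of 5 (median -0.58) and oligodendrocyte genes for 8 of 8 (median -0.18), with 0 passing in each. Above 0 were 7 of 7 meningeal fibroblast genes (0.38), 7 of 7 of smooth muscle and pericytes (0.26), 5 of 5 of endothelium (0.25), 8 of 8 of astrocytes (0.08, of which 1 passed) and 3 of 3 tested choroid plexus genes (1 passed). These values pool PBS and doxorubicin. Striatal scores were 3.88 to 4.93 in males and 4.30 to 4.82 in females with PBS. With doxorubicin they were 4.48 to 5.62 and 3.40 to 4.28. The mean endothelial score was 5.03 and 5.09 with PBS, and 5.01 and 5.48 with doxorubicin. That of smooth muscle and pericytes was 4.50 and 4.50, and 4.39 and 4.95. The oligodendrocyte score was lower in females with either treatment. Without the 3 libraries of striatal score above 5, all doxorubicin males, 0 members passed, with Cox7a2l2 at -0.25 and Atp5pf at -0.21. DESeq2 on all libraries called 29 members, and the share of all genes it called is not given here. No PBS cortex library had a striatal score above 5, the highest being 4.93. The part of these cells in the called genes was not tested.

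No member passed by sex in the other 3 settings with edgeR or with DESeq2. In ApoE3 hippocampus 0 of 77 members passed (0.0873% of all genes). There 64 of 77 lay above 0, with a median of 0.04, and 1 had an unadjusted p under 0.05 (751 of 14898 genes). In ApoE4 hippocampus 0 of 77 passed (0.114% of all genes), although 69 of 77 lay below 0 with a median of -0.05. An unadjusted p under 0.05 was found for 14 members, against 1613 of 14872 genes. Cox6b1 (-0.12, adjusted p = 0.223), Atp5c1 (-0.08) and Cox5b (-0.09) had the smallest p there. In ApoE4 cortex 0 of 78 passed (0.108% of all genes, median -0.03), and Cox7a2l2 had -0.10. An unadjusted p under 0.05 was reached by 2 members and by 1007 of 14837 genes. The sex difference was not shown to depend on genotype: 0 members passed in either region, against 0% of all genes in cortex and 0.00649% in hippocampus. The median difference, ApoE4 minus ApoE3, was 0.10 in cortex and -0.08 in hippocampus. In the same order 24 of 79 and 18 of 78 members had an unadjusted p under 0.05, against 966 of 15314 and 1040 of 15415 genes. DESeq2 called 0 in both.

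Between hippocampus and cortex the most members passed. Of the 79 members tested in ApoE3 PBS rats, 3 were higher and 35 lower in hippocampus, where 24.3% of all genes were higher and 25.1% lower. With doxorubicin 7 were higher and 24 lower of 78, where 25.1% and 25.2% of all genes were. In ApoE4 rats 11 were higher and 20 lower of 77 with PBS (24.8% and 24.4% of all genes) and 11 higher and 21 lower of 78 with doxorubicin (25.2% and 25.7% of all genes). The number of members called in either direction, 38, 31, 31 and 32, was thus at or below the 49.3%, 50.3%, 49.2% and 50.9% of all genes. The medians were -0.13, -0.05, -0.03 and -0.02. The direction was less even in ApoE3 PBS rats, whose lower members were 16 of complex I, 1 of complex II, 2 of complex III, 7 of complex IV and 9 of complex V.

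The 4 comparisons share no library, and 16 of 77 members passed in the same direction in all of them, 2 higher and 14 lower, against 15.9% and 16.2% of all genes. Higher were Cox8a, the widely expressed form of the smallest nuclear complex IV subunit, and Ndufb10. Cox8a had log2 differences of 0.13, 0.19, 0.19 and 0.20 in ApoE3 PBS, ApoE3 doxorubicin, ApoE4 PBS and ApoE4 doxorubicin rats, and was higher in hippocampus in 8 of 8 rats each time. Ndufb10 had 0.27, 0.28, 0.28 and 0.30 in the same order and was higher in 8 of 8 rats each time. In ApoE3 PBS rats Ndufb10 measured 56.8 to 70.0 CPM in cortex (median 66.7) and 70.8 to 91.0 CPM in hippocampus (median 78.0), with no overlap.

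Lower by the largest amount was Cox6a2. In cortex it stood at 1.05 to 3.89 CPM in all 32 libraries, with group medians of 1.98, 2.15, 2.88 and 2.51. In hippocampus the medians were 0.289, 0.175, 0.182 and 0.272 CPM, and 2 ApoE4 PBS libraries held no count. One hippocampal library, an ApoE3 PBS male at 1.54 CPM, reached the cortical range. The log2 differences were -2.31 (SE 0.39), -3.32 (SE 0.38), -3.72 (SE 0.35) and -2.96 (SE 0.24), with adjusted p from 4.79e-05 to 5.98e-09, and the gene was lower in hippocampus in 8 of 8 rats of every group. Its widely expressed partner Cox6a1 had -0.15, -0.06, -0.06 and -0.07 and passed in none. Beside it, 4, 3, 4 and 3 of 6 interneuron genes were lower in hippocampus and 0, 1, 0 and 0 higher. One of them is Pvalb, the calcium-binding protein of fast-spiking interneurons, at -1.05, -1.12, -0.86 and -0.91. Cortical projection neuron genes were lower for 6, 5, 5 and 5 of 6 (medians -1.66, -1.84, -1.85 and -1.85), and striatal neuron genes for 5, 5, 5 and 4 of 5. Of all genes 25.1%, 25.2%, 24.4% and 25.7% were lower. The part of these cells in the Cox6a2 difference was not tested.

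The other 13 members lower in all 4 sets came from every complex. In complex I they were the core subunits Ndufs1 (-0.21, -0.19, -0.20 and -0.27), Ndufs3 (-0.41, -0.24, -0.16 and -0.21) and Ndufv2 (-0.21, -0.14, -0.14 and -0.12) and the accessory subunits Ndufa8, Ndufb9 and Ndufc2, of which Ndufb9 was furthest (-0.39, -0.30, -0.27 and -0.19). Complex II gave Sdhb (-0.25, -0.20, -0.21 and -0.15) and complex III the core protein Uqcrc1 (-0.18, -0.10, -0.11 and -0.10). Complex IV gave Cox7a2l2 (-0.40, -0.36, -0.29 and -0.29), Cox7b (-0.31, -0.26, -0.15 and -0.19) and Cox6c (-0.30, -0.18, -0.18 and -0.14), and complex V gave Atp5pf (-0.40, -0.32, -0.26 and -0.26) and Atp5if1 (-0.27, -0.21, -0.19 and -0.12). Atp5pf in ApoE3 PBS rats measured 133.3 to 179.6 CPM in cortex (median 155.7) and 111.8 to 126.1 CPM in hippocampus (median 116.3), with no overlap.

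Among other members with the smallest p, Ndufb5 had -0.29, -0.19, -0.13 and -0.16, Ndufa6 had -0.39, -0.31, -0.12 and -0.17, and Sdha, the flavoprotein of complex II, had -0.09, -0.11, -0.15 and -0.11 in the same order of sets. The first 2 passed in all but ApoE4 PBS rats and Sdha in all but ApoE3 PBS rats. Higher in hippocampus were Cox6b2 in ApoE3 PBS rats (0.74), Ndufa10l1, Ndufa13, Atp5mc1, Ndufb7 and Cox5b with doxorubicin in ApoE3 (0.11 to 0.17), where the calls of Ndufa13, Atp5mc1, Ndufb7 and Cox5b were lost in 4 or 5 of 8 fits that left out 1 rat, and Atp5mc2, Cox5b, Ndufa13, Ndufb11 and Ndufv3 in both ApoE4 sets (0.11 to 0.17). Ndufa11 was higher in ApoE4 PBS rats (0.23) and Uqcr10 in ApoE4 doxorubicin rats (0.15). Of the other subunits read out, Ndufv1, Ndufs7, Ndufs8, Sdhc, Sdhd, Uqcrc2, Uqcrfs1, Cox5a and Atp5f1a passed in none of the 4. Atp5f1b, the catalytic beta subunit of ATP synthase, passed in ApoE3 PBS rats alone (-0.14).

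**Figure D3:**
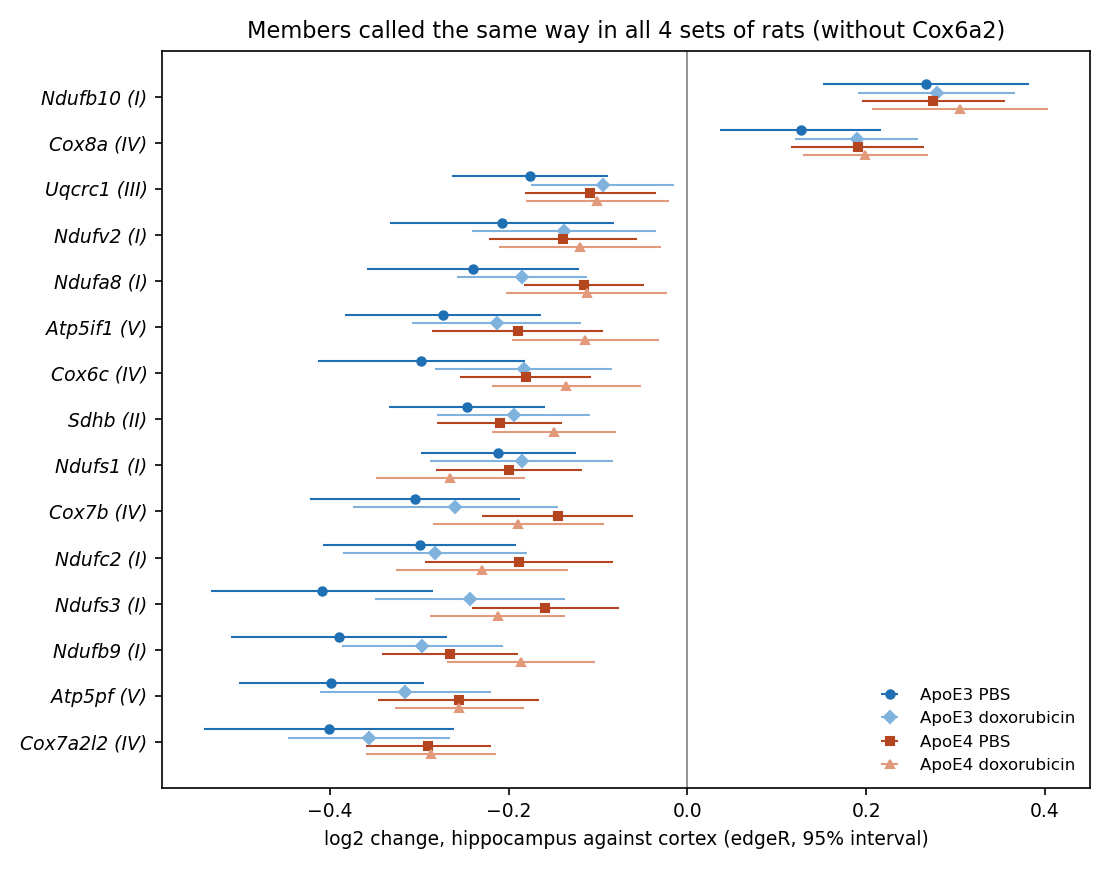
Log2 difference of hippocampus against cortex, with its 95% interval, for 15 of the 16 members called the same way in all 4 sets of rats (Cox6a2, at -2.31 to -3.72, is left out for scale). Cox8a and Ndufb10 lie above 0 and the other 13 below 0 in each set, which the choice of members fixes in advance.

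The balance of higher and lower members moved with the libraries used. Of all genes 25.1%, 25.2%, 24.4% and 25.7% were lower in hippocampus and 24.3%, 25.1%, 24.8% and 25.2% higher. Beside these shares, mitochondrially encoded genes were lower for 5, 6, 5 and 2 of 13. Oligodendrocyte genes were lower for 8, 0, 6 and 2 of 8 and choroid plexus genes higher for 0, 5, 7 and 4 of those tested. Meningeal fibroblast genes were higher for 6, 2, 2 and 2 of 7 and lower for 0, 5, 1 and 0, and genes of smooth muscle and pericytes higher for 5, 1, 0 and 1 of 7 and lower for 0, 4, 1 and 0. Endothelial genes were higher for 3, 0, 0 and 0 of 5 and lower for 0, 3, 1 and 0. The part of these cells was not tested. Without the libraries of choroid plexus score above 4 the members that passed numbered 2 higher and 22 lower in ApoE3 PBS rats and 15 higher and 12 lower in ApoE4 doxorubicin rats, and without the cortex libraries of striatal score above 5 they were 5 higher and 15 lower in ApoE3 doxorubicin rats. Without the hippocampal library of the ApoE3 PBS female that stood apart, 3 were higher and 43 lower.

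Promoter sequences are shown for Cox8a, which was higher in hippocampus in all 4 sets, for Atp5pf, which was lower in all 4, and for Cox6a2, which had the largest regional difference. Each is the 250 bases before the transcription start given by RefSeq on build GRCr8, read 5′ to 3′ on the gene's strand. Capitals mark the core letters of factors known to bind promoters of respiratory genes: NRF1 (GCATGCGC), the ETS family that holds GABP (CCGGAAG) and YY1 (AAGATGGC), searched on both strands. Cox8a lies at chr1:213833624-213833873 on the minus strand, Atp5pf at chr11:37375102-37375351 on the minus strand and Cox6a2 at chr1:192219717-192219966 on the minus strand.
Cox8a: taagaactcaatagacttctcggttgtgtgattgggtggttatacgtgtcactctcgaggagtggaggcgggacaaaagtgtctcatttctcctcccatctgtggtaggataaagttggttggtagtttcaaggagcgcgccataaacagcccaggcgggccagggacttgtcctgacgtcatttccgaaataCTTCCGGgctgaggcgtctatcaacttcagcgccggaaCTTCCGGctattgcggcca
Atp5pf: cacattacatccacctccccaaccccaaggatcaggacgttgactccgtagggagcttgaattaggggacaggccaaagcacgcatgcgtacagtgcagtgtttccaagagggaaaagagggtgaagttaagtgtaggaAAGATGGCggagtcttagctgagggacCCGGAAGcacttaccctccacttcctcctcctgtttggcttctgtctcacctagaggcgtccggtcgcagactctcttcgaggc
Cox6a2: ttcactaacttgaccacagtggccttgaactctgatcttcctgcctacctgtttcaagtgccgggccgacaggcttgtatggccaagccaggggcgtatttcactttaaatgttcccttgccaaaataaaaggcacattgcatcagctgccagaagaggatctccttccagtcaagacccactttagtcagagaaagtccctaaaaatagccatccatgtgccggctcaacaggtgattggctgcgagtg

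The Cox8a stretch holds the ETS letters 2 times on the opposite strand, ending 51 and 13 bases before the start. The Atp5pf stretch holds the YY1 letters 111 to 104 bases and the ETS letters 84 to 78 bases before the start. The Cox6a2 stretch holds none of the 3 cores. GC content was 52.4%, 54.8% and 49.6%. Promoters of 70 members were matched in the RefSeq table, 4 of them by synonym, each from 250 bases before to 50 after the start, so 300 bases in all. The NRF1 core was in 8 of these 70 (11.4%, against 2.66% of 27457 promoters), the ETS core in 19 (27.1% against 9.21%) and the YY1 core in 15 (21.4% against 3.41%). At least 1 of them was in 31 members, or 44.3% against 14.02% of all promoters. By complex these were 13 of 30 matched members of complex I, 3 of 4 of complex II, 4 of 6 of complex III, 3 of 13 of complex IV and 8 of 17 of complex V. A match describes letters in these windows and is not a binding site measured here.

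The tissue forms of complex IV and of Ndufa4 were near the floor of the libraries while their partners were well counted, which bears on precision and not on relative amounts since lengths were not used. Cox6a2 ran from 0 to 3.89 CPM and Cox6a1 from 247.5 to 349.9 CPM over the 64 libraries. Cox4i2, the oxygen-responsive form known from lung, ran from 0.524 to 2.95 CPM and Cox4i1 from 375.7 to 494.1 CPM. Cox7a1 ran from 0.074 to 2.12 CPM, Cox6b2 from 0.372 to 2.40 CPM and Ndufa4l2, known to rise in hypoxia, from 1.08 to 3.80 CPM. Cox7a2, Cox7b2 and Cox8c are not among the 80 members.

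Differences between partners were not tested, and their regional values are given side by side. Cox4i2 was lower in hippocampus in ApoE3 doxorubicin (-0.78) and ApoE4 PBS rats (-0.66) and had -0.31 and -0.20 in the other 2 sets, which did not pass. Cox4i1 was lower with ApoE3, by -0.19 and -0.11, and had -0.08 in both ApoE4 sets, which did not pass. Ndufa4l2 was lower in both PBS sets (-0.39 and -0.53) and had -0.11 and -0.02 with doxorubicin, while Ndufa4 passed in none. Cox6b2 was higher in both PBS sets (0.74 and 0.59) and had 0.43 and 0.37 with doxorubicin.

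Cox8b, the muscle form of the Cox8 subunit, was high in few libraries. It reached 1.51 to 4.93 CPM in the 6 libraries whose choroid plexus score was above 6 (6.25 to 8.79), all hippocampal and spread over the 4 hippocampal groups. In the other 58 libraries, with scores of -1.10 to 4.97, it stood at no more than 0.792 CPM. It was counted too low to be tested by region, and the source of its reads was not tested. Its partner Cox8a ran from 158.1 to 219.7 CPM over all libraries.

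**Figure D4:**
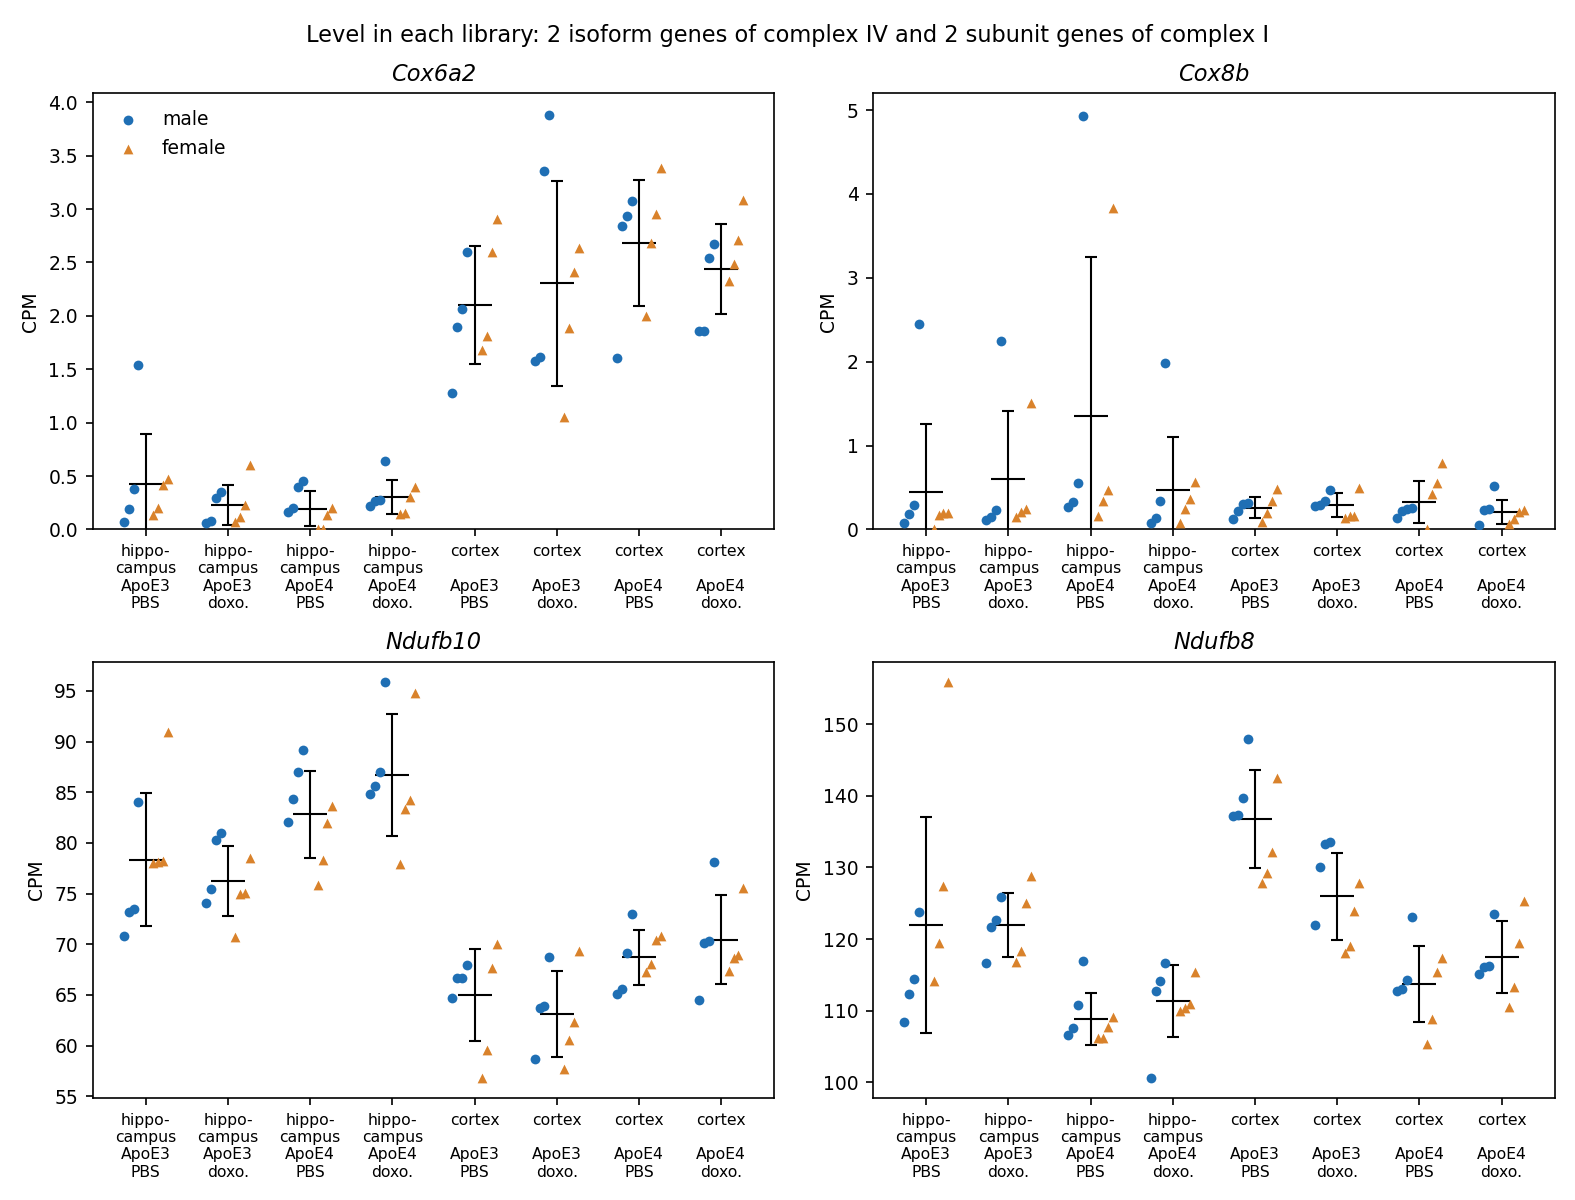
CPM of Cox6a2, Cox8b, Ndufb10 and Ndufb8 in each of the 64 libraries by group (circles, males; triangles, females; mean ± SD of 8; the axes of the last 2 genes do not start at 0). Cox6a2 is high in all cortex groups, Cox8b is above 1 CPM in 6 hippocampal libraries only, Ndufb10 is higher in hippocampus, and Ndufb8 is highest in ApoE3 PBS cortex.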

How the data were processed

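RNA sequencing libraries (NEBNext Ultra II RNA kit, RNA by a Qiagen RNeasy kit, per the labels' protocols) were made from hippocampus and cortex of 32 rats. Per the submitters' processing notes, the authors used STAR 2.5.2b and DESeq2; the read counter, genome build and strandedness are not given in the sources used here. The deposited tables hold the raw count of reads per gene, 1 table per region and genotype, with 32551 gene rows, 92 ERCC spike-ins (0.932% to 2.44% of a library) and 1 other row, the last 2 kinds left out. The authors' comparison tables hold, as deposited, a log2 fold change (doxorubicin over PBS) with raw and adjusted p-value, and a signal, the count over a size factor. Symbols came from these tables for 15432 identifiers.

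Counts were fitted per comparison with edgeR 4.0.16 in R 4.3.3 (filterByExpr, TMM scaling, quasi-likelihood F-test, Benjamini-Hochberg adjustment over all tested genes, threshold 0.05), with sex as a covariate where sex was not the contrast. The SE was taken as the size of the log2 change over the root of F. Levels are CPM with TMM over 64 libraries, and log2 CPM carries a prior count of 1. The 64 libraries of 32 rats are the replicates, 8 per group. In 224 pairs of replicates the lowest mean chi-square per gene was 3.04, so no library was counted as a repeat. Both regions came from the same rats, which pairs them. The correlation of the 2 regions of a rat ranged from -0.109 to 0.233 with a median of 0.0909 (14 of 32 above 0.1). With another rat of the same group and sex the median was -0.0255. In 23 of 32 rats the hippocampus was closest to its own cortex among rats of its group and sex. The main fits left this pairing out, and the rat as a block was an alternative. The others were RLE scaling, scaling by library total, no filter, DESeq2 1.42.0, no sex covariate, summed rows of a symbol, 1 fit of all libraries and each rat left out. Leaving out libraries with choroid plexus or striatal RNA, or 1 hippocampal library, was added after the scores were seen. Library depth (10.84M to 20.4M counts) and 8 libraries per group limit the precision. The procedure was tested on simulated data.

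Named genes are all members that passed where at most 8 did, otherwise the 8 of smallest p in each direction. Where none passed the 3 of smallest p in each direction are named, except for some tests of differences between effects, where counts stand alone. Isoform pairs, a fixed set of mostly core subunits and the widest and flattest members were read out in addition. The members passing the same way in all 4 sets of rats, Cox7a2l2 in ApoE4 cortex and the genes with printed promoters were named after their values were seen. Members and lists were chosen with earlier results of these data known. Some members and lists are given only as counts.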

Additional observations from a re-analysis of the deposited data

Results flagged for a closer look

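Single libraries far from the other 7 of their group were looked for in 6 scores and 12 genes over the 8 groups. Of 144 such groups of 8, 23 had a library whose gap to its nearest neighbour, as a share of the range of the group, was above Dixon's critical value. Chance gives about 1 in 20, and the genes and scores share libraries, so these are not separate events.

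Of the 23, 10 were the hippocampal library of 1 ApoE3 PBS female (rat 58). Its member score was 6.25 against 5.99 to 6.07 in the other 7. Its complex I score was 6.18 against 5.94 to 5.99, its complex II score 7.38 against 7.19 to 7.24, its complex III score 6.79 against 6.49 to 6.61 and its complex V score 6.587 against 6.36 to 6.41. Ndufb8 reached 155.9 CPM there against 108.4 to 127.4, Ndufb9 138.5 against 112.1 to 119.1, Cox7a2l2 124.5 against 94.6 to 102.7, Cox8a 219.7 against 186.8 to 198.4 and Atp5if1 114.6 against 88.1 to 97.4. Its mitochondrially encoded score was 11.51, within 11.24 to 11.61 in the others, and its hippocampal neuron score 6.52, within 6.30 to 6.62.

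The 3 high values of Cox8b were 2.45 CPM in ApoE3 PBS hippocampus (others at most 0.293), 1.99 CPM in ApoE4 doxorubicin hippocampus (others at most 0.567) and 0.519 CPM in ApoE4 doxorubicin cortex (others at most 0.238). Cox6a2 reached 1.54 CPM in 1 ApoE3 PBS hippocampus, with the next at 0.47. Cox4i2 reached 1.84 CPM and Cox7a2l2 111.5 CPM in single ApoE3 doxorubicin hippocampal libraries, with the next at 1.13 and 103.0 CPM.

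Cox8a was low at 158.1 CPM in 1 ApoE3 PBS cortex (others 174.4 to 188.0) and at 166.5 CPM in 1 ApoE4 doxorubicin cortex (others 178.0 to 185.4). Ndufb8 was low at 100.6 CPM in 1 ApoE4 doxorubicin hippocampus (others 109.95 to 116.6) and high at 117.0 CPM in 1 ApoE4 PBS hippocampus (others 106.1 to 110.7). The complex II score was 7.24 in 1 ApoE4 doxorubicin cortex (others 7.30 to 7.34) and 7.37 in 1 ApoE4 PBS hippocampus (others 7.18 to 7.25). The member score was 6.16 in 1 ApoE4 doxorubicin hippocampus (others 6.03 to 6.08).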

How the results depend on the processing

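The median log2 change of the members stayed within 0.054, the mean SD of the member score within a group, of the reported value under all 293 other fits, although medians near 0 changed sign, such as genotype in PBS hippocampus (0.007, and -0.027 by library total). Doxorubicin called 0 members in every fit, and without each rat in turn (0 to 0). Without each rat in turn the members passing by region numbered 30 to 44 in ApoE3 PBS, 25 to 33 in ApoE3 doxorubicin, 28 to 34 in ApoE4 PBS and 24 to 31 in ApoE4 doxorubicin rats. With the rat as a replicate block (the pairing of both regions) they were 41, 29, 30 and 34, and the block moved no other count. Without each rat in turn, the calls of Ndufa13 were lost in 4 of 8 fits and those of Atp5mc1, Ndufb7 and Cox5b in 5 of 8 each by region in ApoE3 doxorubicin rats, and that of Cox6b2 in 1 of 8 in ApoE3 PBS rats. For the alternative fits the share of all genes called is not given here, so their counts are not set against all genes. Counts past 1.5 times the reported ones were as follows, and the cause was not tested. Without choroid plexus scores above 4, 24 passed by region in ApoE3 PBS, 11 by genotype in PBS cortex and 1 by genotype in doxorubicin hippocampus. Without striatal scores above 5, 20 passed by region in ApoE3 doxorubicin, 0 by genotype in doxorubicin cortex and 0 by sex in ApoE3 cortex. Without the ApoE3 female library that stood apart, 2 passed by genotype in PBS hippocampus. By library total 1, 33 and 10 passed by genotype in PBS hippocampus, PBS cortex and doxorubicin cortex. Without the filter 1 and 3 passed by genotype in doxorubicin hippocampus and cortex. By DESeq2 1 passed by genotype in PBS hippocampus, 29 by sex in ApoE3 cortex and 1 by sex in the effect of doxorubicin in ApoE3 cortex. Signs turned for Cox6a2 with doxorubicin in ApoE3 cortex (-0.19 without striatal scores above 5, and -0.007 to 0.248 without each rat), for Uqcrq there (-0.004 to 0.042 without each rat) and for Ndufv3 in the difference of sexes by genotype in hippocampus (-0.002 by RLE scaling and DESeq2, -0.003 without the filter). The 7 members that stayed below 5 CPM in every library (Atp5pb and 6 tissue forms) are limited most by their low counts. Why the Atp5pb row held only 650 counts over the 64 libraries was not tested.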
